A study of Homo sapiens with 6 samples.

Results

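The inter-alpha-trypsin inhibitor genes were followed in Hep3B cells with and without a knockout of RFX6. The group was made up of ITIH1, ITIH2, ITIH3 and ITIH4, which encode heavy chains, and AMBP, which encodes the precursor of the light chain. They were picked by name as 5 of the 16720 named rows of the deposited table of counts. The choice was made with their differences between the groups known, so these differences are given as a description, and no test of them is taken as support.

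Inter-alpha-trypsin inhibitors are plasma proteins made mainly by hepatocytes. AMBP encodes a precursor that is cut into alpha-1-microglobulin, a small lipocalin, and bikunin, a Kunitz-type inhibitor of serine proteases that carries a chondroitin sulphate chain. Heavy chains are joined to this chain through an ester bond in the Golgi, and in tissues they can be passed from it to hyaluronan, which stabilises the matrix. ITIH4 lacks the joining site and circulates as an acute-phase protein on its own.

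Hep3B is an established human line from a hepatocellular carcinoma. The sgControl group held 3 libraries labelled WT, with a control guide, and the sgRFX6 group held 3 libraries labelled RFX6 knockout, and no drug, dose or time point was given for either group. RFX6 is a transcription factor of the regulatory factor X family. The knockout was made with a lentiviral CRISPR vector and puromycin selection, after which clones grown from single cells were expanded, and the columns of sgRFX6 name 1 guide (sg3). Neither the number of clones nor whether the replicates were separate cultures is stated, so the p-values cover the spread between these libraries only, and the effect of the knockout and of a clone cannot be told apart.

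The libraries held between 16730374 and 25070770 counts on named rows. A total of 12839 genes had enough counts to be tested, and edgeR's quasi-likelihood test called 480 of them (3.74%) at an adjusted p-value under 0.05. For RFX6 itself, the sgControl libraries held 117, 144 and 170 counts and the sgRFX6 libraries 69, 59 and 77. Expressed as CPM (the counts of a gene per fixed number of counts of its library, scaled by TMM), the means were 6.27 ± 0.931 and 3.54 ± 0.146 (SD, n = 3). The groups did not overlap (exact permutation test, two-sided, p = 0.1, the smallest that 3 against 3 libraries can give). The edgeR adjusted p-value was 0.142, with a log2 fold change of -0.82 (SE 0.26). Transcripts of RFX6 were therefore still counted in the libraries labelled as knockout. Counts of RNA do not measure the protein, and the paper reports that it checked the knockout by quantitative PCR and by western blotting.

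The coding sequences around the sites at which these proteins are processed are shown first, since they set ITIH4 apart from the other heavy chain genes. Each was read 5′ to 3′ from the GENCODE release 29 transcripts on GRCh38. For ITIH1, ITIH2 and ITIH3, the capitals mark the 6 codons of the conserved site at which the heavy chain precursor is cut and joined to the chondroitin sulphate of bikunin. For AMBP, they mark 4 codons of the basic site between alpha-1-microglobulin and bikunin, followed by the first 5 codons of bikunin.
ITIH1: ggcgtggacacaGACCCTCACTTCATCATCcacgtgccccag
ITIH2: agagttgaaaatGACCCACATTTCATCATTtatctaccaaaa
ITIH3: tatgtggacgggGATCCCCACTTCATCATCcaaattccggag
AMBP: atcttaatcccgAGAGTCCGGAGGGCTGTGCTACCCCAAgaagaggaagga

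Each of these windows ran across an exon junction, so the coordinates include the intron between the exons. In ITIH2 the site began at codon 702 of 946, in exons 16 and 17 of 21 (chr10:7738755-7743183, plus strand). In ITIH1 it began at codon 672 of 911 (exons 17 and 18 of 22, chr3:52788063-52788269, plus strand), and in ITIH3 at codon 651 of 890 (exons 17 and 18 of 22, chr3:52806135-52806330, plus strand). The AMBP site began at codon 202 of 352, in exons 6 and 7 of 10 (chr9:114062720-114069710, minus strand). The heavy chain site was not found in the 935 codons of ITIH4, which says only that this pattern was not in the reading frame searched.

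Only ITIH2 and AMBP were expressed at a level that the test could use. The counts of ITIH2 in sgRFX6 lay far below those in sgControl, whereas the levels of AMBP overlapped between the groups. ITIH1, ITIH3 and ITIH4 had at most 9 counts in any library and did not pass the filter. Of the 5 genes, 2 were tested. Of these, 1 (ITIH2) had an edgeR adjusted p-value under 0.05 and was lower in sgRFX6, as were 1.81% of all tested genes. None was called higher, beside 1.92% of all tested genes. ITIH2 was also the 1 tested member without overlap between the groups, beside 23.1% of all tested genes in either direction and 11.2% with sgRFX6 lower. These counts rest on the contrast that was known when the genes were chosen, and nothing was read from them.

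**Figure D1:**
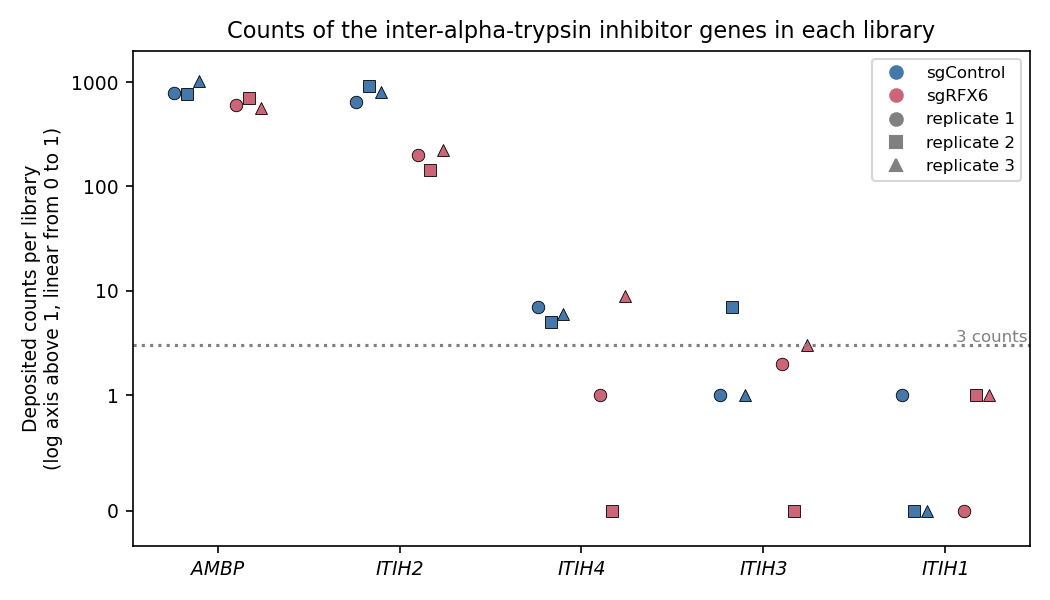
Deposited counts of the 5 genes in each library, on an axis that is logarithmic above 1 and linear from 0 to 1. Colours give the group, symbols the replicate, and the dotted line marks 3 counts, the limit that a count of 0 allows. AMBP and ITIH2 lay at 144 counts or more in every library, and the other 3 genes at 9 or fewer.

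ITIH2 (ENSG00000151655.18, chr10:7703269-7749520, plus strand, 21 exons) encodes the second heavy chain, a component of the plasma inhibitor together with the first heavy chain and bikunin. The sgControl libraries held 649, 926 and 799 counts of it, and the sgRFX6 libraries 198, 144 and 223. Scaled to depth, these were 31.3, 37.5 and 34.5 CPM in sgControl and 9.83, 9.05 and 10.1 CPM in sgRFX6. The groups were wide apart, since the lowest sgControl library exceeded the highest sgRFX6 library.

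The mean CPM of ITIH2 was 34.4 ± 3.11 in sgControl and 9.67 ± 0.557 in sgRFX6 (SD, n = 3), a log2 fold change of -1.83 (SE 0.20), or a 3.56-fold lower level. Within a group the highest library exceeded the lowest by 1.20 times in sgControl and 1.12 times in sgRFX6. Ordered by fold change, ITIH2 was number 195 from the largest fall among the 12839 tested genes. Ranked by mean CPM over all named rows, it moved from place 5535 in sgControl to place 9167 in sgRFX6. The log2 fold change lay between -1.90 and -1.77 over 15 alternative analyses.

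AMBP (ENSG00000106927.11, chr9:114060127-114078472, minus strand, 10 exons) supplies the light chain on which the heavy chains are mounted. Its counts were 792, 771 and 1015 in the sgControl libraries and 607, 704 and 570 in the sgRFX6 libraries. The CPM values were 38.1, 31.2 and 43.8 in sgControl and 30.1, 44.2 and 25.9 in sgRFX6. The second sgRFX6 library, which was the shallowest, held the highest CPM of all 6, and the other two sgRFX6 libraries held the lowest.

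The mean CPM of AMBP was 37.7 ± 6.31 in sgControl and 33.4 ± 9.60 in sgRFX6 (SD, n = 3), and the log2 fold change of -0.18 (SE 0.25) was smaller than its standard error. The libraries of 1 group differed by up to 1.40 times in sgControl and 1.71 times in sgRFX6. The log2 fold change was -0.44 without the second sgRFX6 library, -0.01 without the third and -0.03 without the third sgControl library. It stayed below 0 in the 15 alternative analyses.

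ITIH4 (chr3:52812975-52831479, minus strand) was counted 7, 5 and 6 times in sgControl and 1, 0 and 9 times in sgRFX6. The third sgRFX6 library therefore held more counts than any sgControl library, and the other two held fewer. Summed over the libraries and set against their depth, the ratio of sgRFX6 to sgControl was 0.656, with an exact 95% interval of 0.271 to 1.5 that covers counting error only. AC006254.1 and the antisense gene ITIH4-AS1 overlap ITIH4 in the annotation. Neither was a row of the table, and strand-specific counting was not stated, so reads of these genes could not be told apart from those of ITIH4.

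ITIH3 (chr3:52794768-52809009, plus strand), the third heavy chain, was counted 1, 7 and 1 times in sgControl and 2, 0 and 3 times in sgRFX6. Of its 9 counts in sgControl, 7 came from the second library, and the ratio of sums was 0.656 (exact 95% interval 0.173 to 2.18). ITIH1 (chr3:52777592-52792068, plus strand), the first heavy chain, was counted 1, 0 and 0 times in sgControl and 0, 1 and 1 times in sgRFX6, at or under the 3 counts that a count of 0 allows (0.121 to 0.188 CPM by library). No fold change is given for it. At this depth a difference between the groups was not detectable for these 3 genes, which lie side by side on chromosome 3.

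Levels were next compared between genes as CPM per kilobase of exon, which removes the effect of gene length. In sgControl, AMBP had the highest level of the 5 genes, 18.5 ± 3.09 CPM per kb (15.3 to 21.5), followed by ITIH2 with 10.2 ± 0.921 (9.25 to 11.1). In sgRFX6 the order was the same, with 16.4 ± 4.70 (12.7 to 21.7) for AMBP and 2.86 ± 0.165 (2.68 to 3.0) for ITIH2. In neither group did the ranges of AMBP and ITIH2 overlap. ITIH4, ITIH3 and ITIH1 followed in this order of mean level in both groups, between 0.00353 and 0.0487 CPM per kb. Their counting intervals overlapped within single libraries, so the order of these 3 was not resolved library by library. Summed over the sgControl libraries, ITIH4 had 18 counts, ITIH3 9 and ITIH1 1, and this order was not tested.

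The ratio of ITIH2 to AMBP, per length, was 0.495, 0.726 and 0.476 in sgControl and 0.197, 0.124 and 0.236 in sgRFX6. Each sgRFX6 library thus held fewer ITIH2 transcripts per AMBP transcript than any sgControl library, with means of 0.565 ± 0.139 and 0.186 ± 0.0573 (SD, n = 3). The ratio sets genes side by side in the same library and does not depend on its depth, but it does depend on the gene lengths used. ITIH2 took nearly all heavy chain counts in both groups. Its share was 98.6% (95% Wilson interval 97.4 to 99.3), 98.7% (97.8 to 99.3) and 99.1% (98.2 to 99.6) in sgControl, out of 658 to 938 counts. In sgRFX6 it was 98.5% (95.7 to 99.5), 99.3% (96.2 to 99.9) and 94.5% (90.8 to 96.8), out of 145 to 236 counts, and the lowest share was that of the library with 9 counts of ITIH4.

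**Figure D2:**
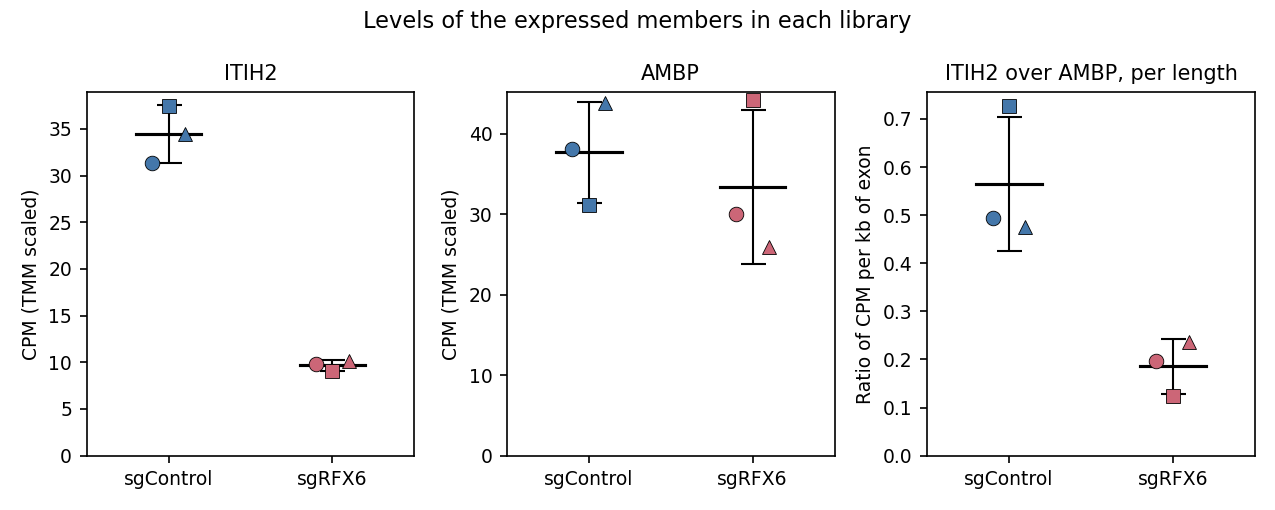
CPM of ITIH2 and AMBP and the ratio of their levels per kilobase of exon, by group. Points are libraries, with symbols by replicate (circle 1, square 2, triangle 3), and the bars give the mean and SD. ITIH2 lay at 31.3 to 37.5 CPM in sgControl and 9.05 to 10.1 CPM in sgRFX6, AMBP overlapped between the groups, and the ratio did not.

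Other secreted liver proteins placed these levels within the line. The 10 hepatocyte markers examined were all tested, with a summed level of 187 to 236 CPM in sgControl and 135 to 180 CPM in sgRFX6. Per length, APOH, a plasma glycoprotein that binds phospholipid, stood above AMBP with 57.1 ± 9.36 CPM per kb in sgControl and 44.0 ± 4.40 in sgRFX6. FGB, the fibrinogen beta chain, overlapped ITIH2 in sgControl with 9.76 ± 2.55 CPM per kb and lay below it in sgRFX6 with 1.78 ± 0.568, and ALB, albumin, had 5.98 ± 3.08 and 6.52 ± 1.15. TTR, the carrier of thyroxine, had at most 21 counts in a library, so defining products of hepatocytes were partly near the floor in these cells.

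Hepatocyte markers moved in both directions. FGB fell by 2.45 on the log2 scale (SE 0.32; edgeR adjusted p = 0.00417), whereas AFP, the fetal counterpart of albumin, rose by 2.82 (SE 0.32; edgeR adjusted p = 0.00254) and AHSG, a plasma inhibitor of calcification, by 1.68 (SE 0.28; edgeR adjusted p = 0.0119). These 3 were the called genes of the 10 in the list, beside 3.74% of all tested genes. The median log2 fold change of the list was 0.29 beside 0.02 over all tested genes. The summed level lay largely on APOH (76.1 ± 12.5 and 58.6 ± 5.86 CPM) and APOB (66.6 ± 8.6 and 27.1 ± 16.5 CPM, edgeR adjusted p = 0.116). APOB was named after its values were seen. Markers of other cells were counted as well. Those of stellate cells and fibroblasts summed to 24.9 to 33.1 CPM in sgControl and 21.3 to 56.4 in sgRFX6. Of the 6, 4 were tested, and edgeR called COL1A1 and COL1A2 lower, beside 1.81% of all tested genes. LUM, which held most of the sum, had 20.4 ± 4.15 and 31.6 ± 20 CPM (log2 fold change 0.63, SE 0.40, edgeR adjusted p = 0.53). DCN had a log2 fold change of -0.44 (SE 0.48, edgeR adjusted p = 0.758). Endothelial markers summed to 11.6 to 13.5 and 13.3 to 19.6 CPM, with KDR at 0 in sgControl. Immune markers summed to 73.8 to 160 and 64.5 to 102, nearly all of it CD68 (means 105 and 86.3). Cholangiocyte markers summed to 606 to 975 and 415 to 758, nearly all of it KRT19 (means 736 and 592). No gene of these 3 lists was called by edgeR, with 2 at an unadjusted p-value under 0.05, beside 15.6% of all tested genes. The part of these shifts in the ITIH2 difference was not tested. A shift in all cells of the line and a shift in some of them cannot be told apart in bulk RNA.

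The genes around the inhibitors' biology were counted from 8 lists with 97 genes, of which 90 were rows of the table and 68 were tested. By edgeR, 6 of the 68 (8.82%) fell in sgRFX6 and none rose. Over all tested genes 3.74% were called in either direction, 1.81% lower and 1.92% higher. The lists were chosen with earlier results of these data known, so nothing was read from these shares. The median log2 fold change of the 68 was -0.04 beside 0.02 over all. Of the 68 genes, 15 had an unadjusted p-value under 0.05. This was a larger share than the 15.6% of all tested genes, and nothing was read from it either. DESeq2 called 11 of them, 8 lower and 3 higher, and limma-voom called 34, with 16 lower and 18 higher, so the split by direction depended on the tool. Without the third sgControl or the first sgRFX6 library, edgeR called 3.

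Genes that build and mount the chondroitin sulphate chain, or cut the precursors, gave 2 of the falls among 20 tested genes (median log2 fold change -0.05). Over all tested genes 1.81% fell. FURIN, a proprotein convertase of the Golgi that cuts behind basic residues, had 174, 213 and 157 CPM in sgControl and 93.3, 75.7 and 58.9 CPM in sgRFX6. Its log2 fold change was -1.25 (SE 0.21; edgeR adjusted p = 0.0144). CHST3, a sulphotransferase of chondroitin, went from 72.1, 62.3 and 76.4 CPM to 26.5, 24.1 and 21.7 CPM, with a log2 fold change of -1.54 (SE 0.19; edgeR adjusted p = 0.00329). In both genes every sgRFX6 library lay below every sgControl library, and both stayed under the threshold in the 15 alternative analyses. An unadjusted p-value under 0.05 was found for 4 of the 20, beside 15.6% of all tested genes. Among them CHSY3 (log2 fold change 1.70, SE 0.40; edgeR adjusted p = 0.0541) and CSGALNACT1 (1.06, SE 0.27; edgeR adjusted p = 0.0772) were higher in sgRFX6. They were named after their values were seen, and CHSY3 had at most 40 counts in a library.

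Of the genes that bind hyaluronan, the acceptor of heavy chains in tissue, 7 of 16 were tested (median log2 fold change -0.24). By edgeR 1 fell, beside 1.81% of all tested genes. This was VCAN, which encodes the large matrix proteoglycan versican. It had 383, 402 and 292 CPM in sgControl and 66.0, 39.8 and 132 CPM in sgRFX6, a log2 fold change of -2.18 (SE 0.39; edgeR adjusted p = 0.0188). CD44, the main cell surface receptor of hyaluronan, averaged 229 ± 62.6 CPM in sgControl libraries and 248 ± 19.2 CPM in sgRFX6 libraries (SD, n = 3; edgeR adjusted p = 0.885). The enzyme that passes heavy chains to hyaluronan is encoded by TNFAIP6, which was not analysed here.

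Of the genes that make or degrade hyaluronan, 8 of 10 were tested and 1 fell, beside 1.81% of all tested genes (median log2 fold change -0.11). CEMIP, which is needed to depolymerise hyaluronan, had 139, 138 and 160 CPM in sgControl and 74.4, 79.3 and 61.2 CPM in sgRFX6, a log2 fold change of -1.02 (SE 0.17; edgeR adjusted p = 0.0131). UGDH, which makes the UDP-glucuronate used for hyaluronan, averaged 672 ± 40.6 CPM in sgControl libraries and 598 ± 164 CPM in sgRFX6 libraries (edgeR adjusted p = 0.809). The call of CEMIP was lost without the third sgControl library (edgeR adjusted p = 0.0745) and without the first sgRFX6 library (0.0711), and that of VCAN without the second or the third sgControl library (0.0663 and 0.0542) or the first sgRFX6 library (0.0824).

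The trypsin-like proteases, the enzyme class that bikunin inhibits, had a median log2 fold change of -0.19. By edgeR 1 of 8 tested genes fell, beside 1.81% of all tested genes. PLAT, tissue plasminogen activator, was counted 172, 479 and 213 times in sgControl and 10, 16 and 12 times in sgRFX6. The second sgControl library held the most, but each sgControl library was far above each sgRFX6 library, and the log2 fold change was -4.19 (SE 0.47; edgeR adjusted p = 0.0026). It remained under the threshold in the 15 alternative analyses. PRSS3, a trypsinogen, averaged 28.5 ± 6.90 CPM in sgControl libraries and 39.6 ± 14.6 CPM in sgRFX6 libraries (edgeR adjusted p = 0.559).

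Kunitz-domain inhibitors share the fold of bikunin. None of the 7 tested was called by edgeR, 1 had an unadjusted p-value under 0.05 (15.6% of all tested genes did), and their median log2 fold change was 0.30. Those with the highest levels were APLP2, with 789 ± 159 and 973 ± 54.1 CPM (edgeR adjusted p = 0.528), and APP, the amyloid precursor, with 862 ± 215 and 633 ± 42.4 CPM (edgeR adjusted p = 0.364), in sgControl and sgRFX6.

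Lipocalins share the fold of alpha-1-microglobulin, and 1 of 8 tested genes fell, beside 1.81% of all tested genes (median log2 fold change 0.44). An unadjusted p-value under 0.05 was found for 3 of the 8, beside 15.6% of all tested genes. Of these, C8G (log2 fold change 1.81, SE 0.475, edgeR adjusted p = 0.0816) and LCN2 (1.57, SE 0.419, edgeR adjusted p = 0.0864) were higher in sgRFX6. Both were named after their values were seen, and LCN2 had at most 28 counts in a library. RBP4, the plasma carrier of retinol, had 23.3, 28.7 and 29.6 CPM in sgControl and 12.6, 13.1 and 8.90 CPM in sgRFX6, a log2 fold change of -1.24 (SE 0.24; edgeR adjusted p = 0.0247). Its call was lost without the second or the third sgControl library (edgeR adjusted p = 0.0658 and 0.126) and without the first or second sgRFX6 library (0.0904 and 0.0518). PTGDS, a prostaglandin D synthase, had 4.53, 44.9 and 4.96 CPM in sgControl and 13.3, 5.34 and 3.45 CPM in sgRFX6 (edgeR adjusted p = 0.556), and its group means turned on the second sgControl library.

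Liver transcription factors, which drive genes of plasma proteins in hepatocytes, gave no call by edgeR among 10 tested genes, with 2 at an unadjusted p-value under 0.05 (15.6% of all tested genes) and a median log2 fold change of -0.13. HNF4A, a nuclear receptor of hepatocytes, had 146, 161 and 146 CPM in sgControl and 135, 133 and 109 CPM in sgRFX6 (log2 fold change -0.27, SE 0.16; edgeR adjusted p = 0.494). CEBPA had 174 ± 32 and 220 ± 70.0 CPM (edgeR adjusted p = 0.601). Of the other heavy chain genes, ITIH6 was counted 3, 2 and 4 times in sgControl and 1, 1 and 3 times in sgRFX6 and was not tested, and ITIH5 was not analysed here.

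**Figure D3:**
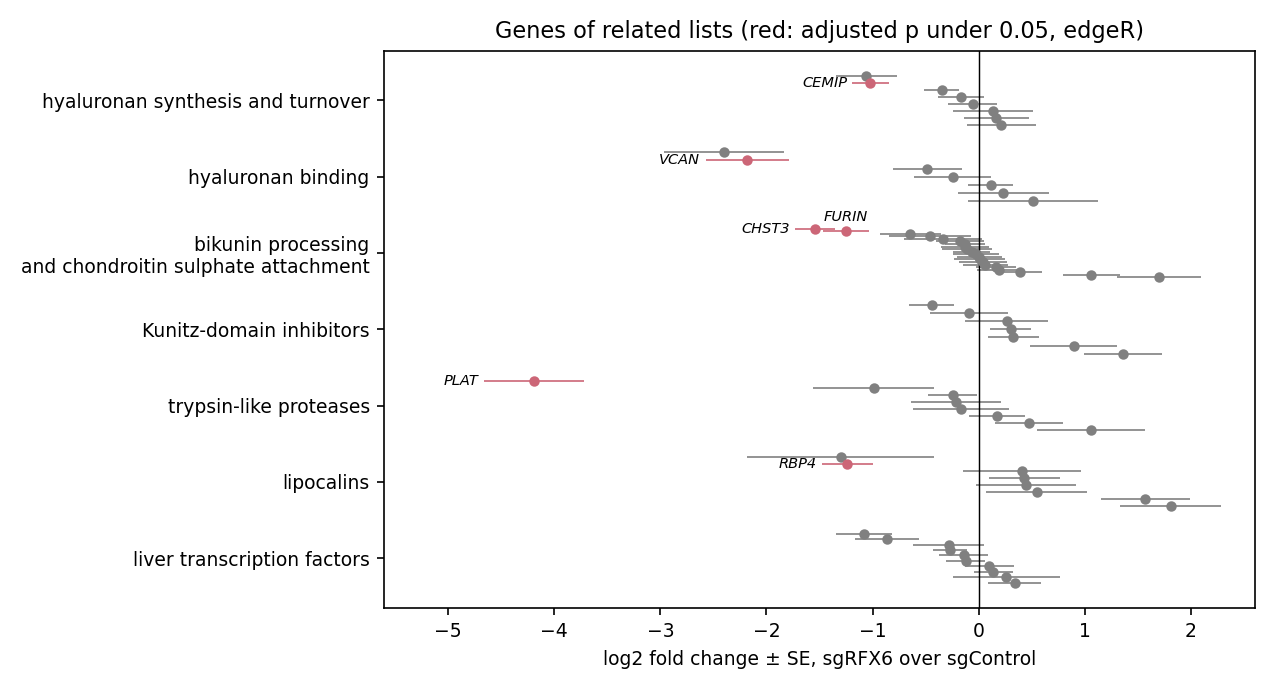
Log2 fold change of sgRFX6 over sgControl with its SE for the 68 tested genes of the lists around the inhibitors' biology. Each point is a gene, and red points with names had an edgeR adjusted p-value under 0.05. The 6 named genes lay between -4.19 (PLAT) and -1.02 (CEMIP).

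The members occupy 3 loci, and the 5 nearest tested genes on each side of each were compared. Over all tested genes, edgeR called 3.74%, and 15.6% had an unadjusted p-value under 0.05. Around ITIH2 none of the 10 neighbours was called by edgeR, and their log2 fold changes ran from -0.66 to 0.34 with a median of -0.27. None of them was as low as ITIH2 (-1.83). Not all were close by, since they lay as far as 1.77e+03 kb before ITIH2 (FBXO18) and 3.7e+03 kb after it (USP6NL). The nearest were SFMBT2, a polycomb group gene 292 kb before it (0.34, SE 0.25; edgeR adjusted p = 0.589), and KIN, which encodes a DNA- and RNA-binding protein and lies 1.44 kb after it (-0.35, SE 0.34; edgeR adjusted p = 0.714). GATA3, a transcription factor gene 296 kb after it and named after its value was seen, was the 1 neighbour with an unadjusted p-value under 0.05 (log2 fold change -0.66, SE 0.20; edgeR adjusted p = 0.122).

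Around AMBP 1 of 10 neighbours was called by edgeR, beside 3.74% of all tested genes, and nothing about the locus was read from it. The median log2 fold change of the 10 was -0.11. COL27A1, a fibrillar collagen gene 77.1 kb after AMBP, fell by 1.13 on the log2 scale (SE 0.17; edgeR adjusted p = 0.00917). Its call was lost without the third sgControl library (edgeR adjusted p = 0.0517) or the first sgRFX6 library (0.0627). The nearest neighbours were ZNF618, a zinc finger gene (-0.48, SE 0.18; edgeR adjusted p = 0.216), and KIF12, a kinesin gene (-0.13, SE 0.46; edgeR adjusted p = 0.945). Around the cluster of ITIH1, ITIH3 and ITIH4 edgeR called none of 10 neighbours, and none had an unadjusted p-value under 0.05. Their log2 fold changes lay between -0.45 and 0.32. NEK4, a kinase gene on one side of the cluster, had -0.04 (SE 0.29; edgeR adjusted p = 0.972), and TMEM110-MUSTN1, a readthrough gene that shares exons with TMEM110 on the other, -0.25 (SE 0.34; edgeR adjusted p = 0.826).

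**Figure D4:**
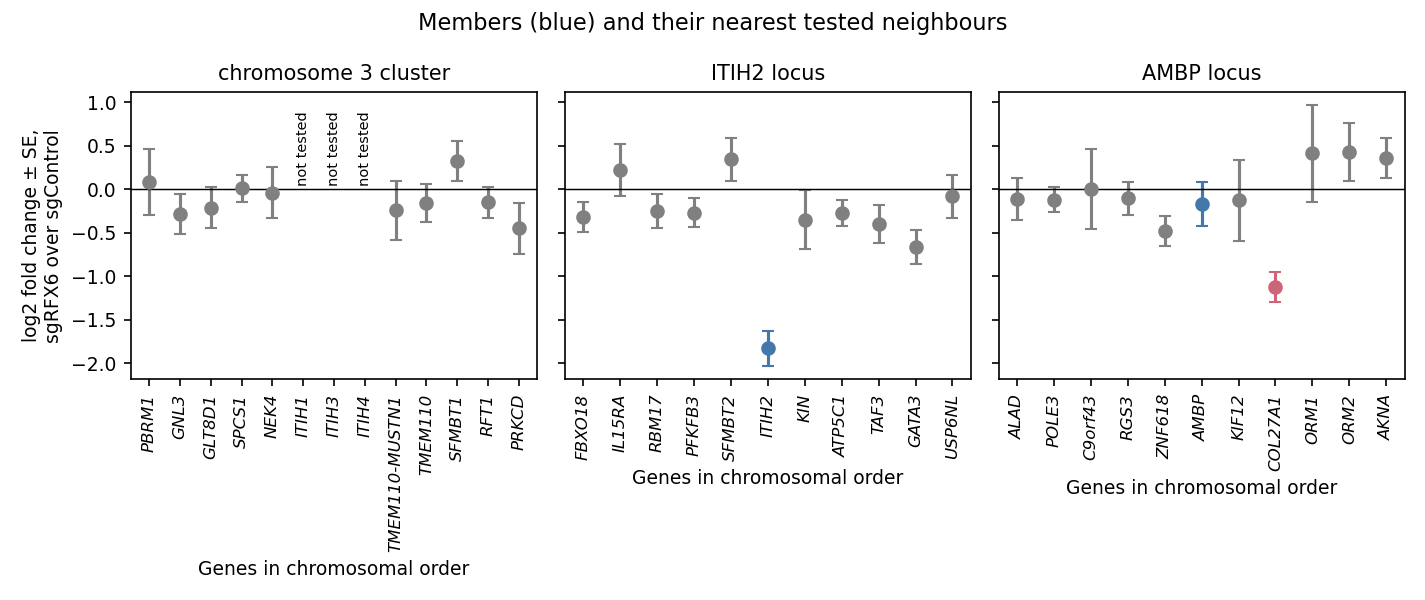
Log2 fold change of sgRFX6 over sgControl with its SE for the members (blue) and the 5 nearest tested genes on each side, in chromosomal order. COL27A1 (red) was the 1 neighbour with an edgeR adjusted p-value under 0.05, beside 3.74% of all tested genes. ITIH2 stood at -1.83 and was chosen with its fall known.

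The profiles of ITIH2 and AMBP over the 6 libraries were set against those of 11436 genes, each as log2 CPM minus its own mean. The root mean square difference was used, so that a small value means a like profile, and it reflects the group difference as well as the libraries. Nearest to ITIH2 were SHISA2 (0.153), SLC47A1 (0.154) and RHOBTB1 (0.154), beside a median of 0.963 over all genes. RHOBTB1, which also lies on chromosome 10, had 69.4, 74.4 and 59.7 CPM in sgControl and 22.6, 17.1 and 23.4 in sgRFX6. SLC47A1, an exporter of organic cations, had 13.2, 17.3 and 11.7 CPM in sgControl and 4.62, 3.71 and 4.18 in sgRFX6, and SHISA2 had 9.54, 9.59 and 11.1 in sgControl and 3.53, 2.89 and 3.31 in sgRFX6.

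The profiles of AMBP and ITIH2 differed by 0.878, less than the median gene differed from ITIH2 (0.963) and more than the median gene differed from AMBP (0.409). Nearest to AMBP were C15orf61 (0.050), ZBTB49 (0.0606) and MON1A (0.0613). C15orf61 had 11, 9.43 and 11.8 CPM in sgControl and 8.64, 12.9 and 7.58 in sgRFX6, and so shared with AMBP the high second sgRFX6 library. These likenesses describe the 6 libraries only.

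**Figure D5:**
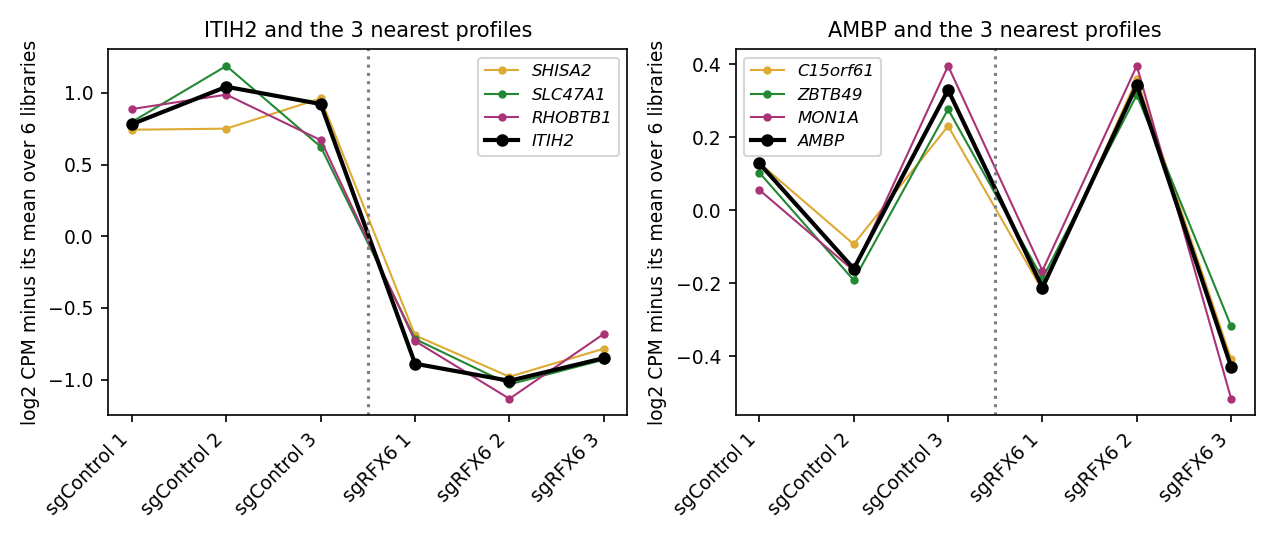
Log2 CPM minus its mean over the 6 libraries for ITIH2 and AMBP (black) and the 3 genes with the nearest profiles (colours). The dotted line separates sgControl from sgRFX6. The genes near ITIH2 stepped down between the groups, and those near AMBP peaked in the second sgRFX6 library.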

How the data were processed

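RNA of Hep3B cells was isolated with Trizol and sequenced on an Illumina platform. The authors deposited 1 table of raw counts with 1 column for each of the 6 libraries. Columns named cas were taken as sgControl, the only control group. Build names in the submitters' processing notes are GRCh38 and hg38. The aligner, counting program and annotation are not given in the sources used here. An unnamed row, with up to 9.17e-05% of the counts per library, was not used.

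Counts were fitted with edgeR 4.0.16 in R 4.3.3 (filterByExpr with a minimum count of 10 and total of 15, TMM, quasi-likelihood test without covariates, Benjamini-Hochberg adjustment, threshold 0.05), over all 6 libraries. The common biological coefficient of variation was 0.269. The script was tested on simulated data. Alternatives were DESeq2 1.42.0, RLE factors, no scaling factors, voom with quality weights in limma 3.58.1, other filters, GC offsets, the replicate block and each library left out in turn. Positions and lengths (union of exons) came from GENCODE 29, in which 15422 rows matched by name, 261 by another symbol and 1038 did not. Sites were searched in translated reading frames (aspartate, proline and histidine, then phenylalanine, isoleucine or valine, then isoleucine, then isoleucine or valine).

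The members and lists were chosen with earlier results of these data known. Named genes were the members, RFX6, the other heavy chain genes, up to 4 called genes per list, filled up to 2 by level, called and nearest neighbours, and the 3 nearest profiles (mean log2 CPM 1 or more). Cell type markers are named beside the results they touch. Intervals cover counting error only, since PCR copies are not independent molecules.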

Additional observations from a re-analysis of the deposited data

How the results depend on the processing

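The log2 fold change of ITIH2 lay between -1.90 and -1.77 and that of AMBP between -0.438 and -0.0131 with each library left out in turn, and both stayed below 0 in the 15 alternatives. With the longest transcript as gene length, the ratio of ITIH2 to AMBP in sgControl was 0.42 in place of 0.565. Without 1 sgControl library it was 0.485 to 0.61, and without 1 sgRFX6 library the ratio in sgRFX6 was 0.16 to 0.217. RFX6 passed the threshold with limma-voom (log2 fold change -0.958, adjusted p = 0.00274) and with GC offsets (-0.85, adjusted p = 0.0459). Its adjusted p was 0.00274 to 0.505 over the alternatives, and its log2 fold change was -0.895 to -0.667 with 1 library left out. The 480 called genes became 908 with DESeq2, 3998 with limma-voom, 1431 with GC offsets, 862 with GC offsets and the replicate block, and 212 (without the third sgControl library) to 718 (without the third sgRFX6 library) with 1 library left out. They were 216 without the first sgRFX6 library, 303 without the second and 306 without the first sgControl library. The 6 called genes of the related lists became 11, 34, 15 and 12 in the first 4 of these settings and 3 to 9 with 1 library left out. The 1 called neighbour became 2 with DESeq2, 10 with limma-voom and 2 with GC offsets, and 0 to 1 with 1 library left out. Same-numbered libraries of the groups did not deviate together (correlations -0.406, 0.174 and -0.0867), so they share only a number. No library correlated best with its own number. With the replicate block 648 genes were called (322 higher, 326 lower), and the log2 fold changes of ITIH2 and AMBP were -1.83 and -0.201. The cause of these shifts was not tested. Depth limits ITIH1, ITIH3 and ITIH4, which had at most 9 counts in a library.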
